A study of Mus musculus with 5 samples.

Results

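The molecules described here are small RNA tags from mouse testis cells that match the start of a mature miRNA up to their last base and carry, as that last base, one that the mature sequence does not have there. A tag was a member when it had 1 mismatch, 1 placement and no unread base, and when the tag without its last base was itself found without a mismatch at the same start of the same miRNA in any library. There were 3511 such tags on 405 miRNA names, of 60421 tags on 531 names with 0 or 1 mismatches and 1 placement. They held 260578 of 13685377 reads. By the last base, 1277 tags (151797 reads) ended in an extra A, 1014 tags (73853 reads) in T, 652 tags (19063 reads) in C and 568 tags (15865 reads) in G. All further shares are the reads with a given added base as a percent of all reads of 0 or 1 mismatches and 1 placement of that miRNA, or of that library.

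The 5 libraries came from C57BL/6 testis cells. Magnetic beads with a Thy1.2 antibody had separated the cells, and Thy1 is a surface marker by which spermatogonial stem cells are enriched. No transgene, deletion or drug treatment is named for any of them, and the age of the animals is not given in the sources used here. The 2 Thy1+ libraries are the freshly isolated fraction enriched for stem cells and the 2 Thy1- libraries the fresh fraction left over, which the titles call enriched for somatic cells although a cell type label repeats the stem cell name. The 1 culture library is a germ cell culture grown from Thy1+ cells for about 10 passages. Fractions enriched on beads are mixtures, and a summed share cannot tell apart fewer cells of a type from less RNA per cell. Nothing in the labels ties the replicates to different animals, and p-values here reflect only the spread between these samples, which may be technical.

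A mature miRNA is cut from a hairpin precursor, bound by an Argonaute protein and directed to its targets mainly by the seed, a short run of bases near its 5′ end. Terminal nucleotidyltransferases can add bases to the 3′ end of a miRNA that the gene does not encode, and exonucleases can trim that end. Added A and added U are the forms usually described in animals. TENT2 is known for adding A, and TUT4 and TUT7 for adding U. Addition of U to the precursors of let-7 is known as a step by which LIN28 holds back let-7 in stem cells.

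The mature sequences on which the results turn are shown first, with the seed in capitals, so that the 3′ ends can be compared with the tags that follow. They are from RefSeq on GRCm38.p6, written 5′ to 3′. For 333 of the 405 names RefSeq has the same mature sequence as the files use. The 3 let-7 members share 1 seed, as do the 3 miR-181 members and the 2 minor strands of miR-30.
let-7c: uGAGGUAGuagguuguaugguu
let-7i: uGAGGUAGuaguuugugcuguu
let-7e: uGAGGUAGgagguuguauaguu
miR-181a: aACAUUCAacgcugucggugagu
miR-181b: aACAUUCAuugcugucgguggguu
miR-181d: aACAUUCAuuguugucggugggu
miR-30a*: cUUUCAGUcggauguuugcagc
miR-30e*: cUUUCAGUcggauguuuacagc
miR-27b: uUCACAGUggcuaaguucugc
miR-103: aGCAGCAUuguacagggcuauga
miR-25: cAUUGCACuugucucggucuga
miR-101a: uACAGUACugugauaacugaa
miR-881: aACUGUGUcuuuucugaauaga
miR-295: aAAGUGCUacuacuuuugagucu

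The most abundant added tags of these miRNAs follow, as sequenced (T for U), with the added base in capitals. Each is shown because it holds most of the reads of its miRNA and added base, and the let-7e tag with G is shown also for its shorter end.
let-7c plus A: tgaggtagtaggttgtatggtA
let-7i plus A: tgaggtagtagtttgtgctgtA
let-7e plus A: tgaggtaggaggttgtatagA
let-7e plus G: tgaggtaggaggttgtaG
miR-27b plus A: ttcacagtggctaagttctgA
miR-27b plus T: ttcacagtggctaagttctgT
miR-30a* plus T: ctttcagtcggatgtttgcagT
miR-30e* plus T: ctttcagtcggatgtttacagT
miR-103 plus T: agcagcattgtacagggctatgT
miR-25 plus T: cattgcacttgtctcggtctgT
miR-181a plus G: aacattcaacgctgtcggtgagG
miR-181b plus G: aacattcattgctgtcggtgggG
miR-181d plus G: aacattcattgttgtcggtgggG
miR-101a plus C: tacagtactgtgataactgaC
miR-881 plus C: aactgtgtcttttctgaatagC
miR-295 plus C: aaagtgctactacttttgagtcC

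In all these lines the capital stands where the mature sequence has another base, and never after its end. That holds for the whole set: 0 tags in the files run past the mature end, so an added base can be seen only on a 3′ end trimmed by at least 1 base, and only where it differs from the mature base at that place. An addition after trimming and a changed last base give the same tag and cannot be told apart. An added T cannot be seen on the last positions of let-7, whose mature sequences end in 2 U. Of the 3511 tags, 3026 had a RefSeq hairpin that holds their own mature sequence, and 0 of these occurred whole in it. Each tag differs from that mature sequence at its last base, so the count follows nearly from the definition and is no separate check. Across all mouse hairpins of that table, 6 tags with 56 reads occurred whole.

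The extra last base stood far above the level of mismatches elsewhere in the same reads. At the last base 1.81% and 2.16% of reads differed from the mature sequence in the Thy1+ libraries, 2.02% and 2.19% in the Thy1- libraries and 1.65% in the culture. At the 9 positions from 4 to 12 bases before the last, the median was 0.162%, 0.228%, 0.186%, 0.185% and 0.126% in the same order. The ratio of last to inner was between 9.47 and 13.0. The ratio differed by the bases involved. Where the mature base is T, an A was found at the last position 39.6 to 76.0 times as often as at inner positions. For A in place of G the ratio was 43.3 to 80.4, and for T in place of A it was 43.9 to 135. For C in place of T the ratio was only 1.68 to 3.85, and for G in place of A 2.53 to 4.42. It was 3.96 to 9.07 for G in place of T, 2.94 to 5.79 for G in place of C and 2.36 to 7.77 for C in place of G. The ratio was 5.61 to 24.0 for C in place of A, 6.55 to 16.9 for A in place of C and 7.08 to 10.3 for T in place of G. For T in place of C it was 3.57 to 11.8, and the lowest value overlapped those of C in place of T.

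Added A made up 0.918% and 1.10% of the reads in the Thy1+ libraries, 1.03% and 1.22% in the Thy1- libraries and 1.08% in the culture. The 2 fresh fractions overlapped. Added T was 0.519% and 0.649% in Thy1+, 0.624% and 0.669% in Thy1-, and 0.356% in the culture, which was the lowest of the 5 on this measure. The fresh fractions overlapped here too, as shares of all reads. They did not overlap over the reads whose last mature base is not T, where an added T can be seen, with 0.850% and 1.19% in Thy1+, 1.505% and 1.67% in Thy1- and 0.659% in the culture. Nor did they without the 10 most abundant miRNAs, where added T was 0.847% and 0.954% in Thy1+, 1.35% and 1.51% in Thy1- and 1.02% in the culture. Over the reads whose last mature base is not A, added A was 1.15% and 1.42% in Thy1+ and 1.23% and 1.41% in Thy1-. In the culture it was 1.31%. Over visible reads, T was thus above A in both Thy1- libraries and below it in the others. An added T could be seen on 44.7% and 42.0% of Thy1- reads, and an added A on 90.4% and 91.0%. Added C was 0.243% and 0.270% in Thy1+, above 0.196% and 0.103% in Thy1- and 0.104% in the culture. Added G was 0.0982% and 0.1005% in Thy1+, below 0.108% and 0.160% in Thy1-, with 0.0832% in the culture. All 4 bases together reached 1.78% (95% Clopper-Pearson interval 1.75% to 1.81%) and 2.12% (2.09% to 2.15%) in Thy1+. They reached 1.96% (1.94% to 1.98%) and 2.15% (2.14% to 2.17%) in Thy1-, and 1.62% (1.61% to 1.63%) in the culture. These intervals cover counting error only, because reads copied by PCR are not independent molecules.

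With 2 libraries against 2, the exact two-sided permutation test cannot go below p = 0.33. Added C (0.257% ± 0.0193 in Thy1+ and 0.149% ± 0.0660 in Thy1-, SD, n = 2) and added G (0.0993% ± 0.00164 and 0.134% ± 0.0363) reached that p, and the other shares had exact p = 0.667. After Benjamini-Hochberg adjustment over the 5 shares all stood at 0.667. The C and G differences changed with the weight given to each miRNA. As a median over the 75 miRNAs with at least 1000 reads in every library, added C was 0.143% and 0.0906% in Thy1+ against 0.176% and 0.0740% in Thy1-, with overlap. When each miRNA was given the same weight in every library, C was 0.221% and 0.168% against 0.213% and 0.130%, again with overlap. Added G as a median was 0.0320% and 0.0400% in Thy1+ against 0.0437% and 0.0370% in Thy1-, with overlap. At the same weight in every library it was 0.103% and 0.105% against 0.107% and 0.110%, without overlap. With those weights, added T was 0.495% and 0.493% in Thy1+, below 0.632% and 0.615% in Thy1-, and 0.591% in the culture. Added A was then 1.33% in the culture and 0.974% to 1.10% in the fresh libraries. All bases together were 2.22% in the culture, above 1.83% to 1.93% in the fresh libraries. As a median over miRNAs they were 2.09%, above 1.12% to 1.53%. Without the 10 most abundant miRNAs the culture was at 3.27%, within the fresh range of 2.40% to 3.70%. Over reads without a mismatch or unread base, plus the added reads, the culture stayed lowest, at 1.68% against 1.86% to 2.26%.

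Most miRNAs carried little. Over the 75 miRNAs with at least 1000 reads in every library, the median share of each miRNA over the 5 libraries had its own median at 0.607% for A, 0.302% for T, 0.117% for C and 0.0398% for G. At least 1% was reached by 25 miRNAs for A, 16 for T, 3 for G and 2 for C. The 10 leading miRNAs of each base held 59.1% to 70.2% of the added A reads in a library, 52.5% to 65.5% of T, 57.7% to 80.2% of G and 48.6% to 62.5% of C. The order of miRNAs by share was similar in all libraries for A and T. Across miRNAs, the rank correlation of A shares was 0.927 to 0.960 between libraries of different groups and 0.9505 and 0.966 between replicates. For T it was 0.906 to 0.951 between groups and 0.906 and 0.942 between replicates. C (0.645 to 0.802 between groups, 0.480 and 0.734 between replicates) and G (0.624 to 0.773, and 0.592 and 0.765) repeated less well. These values are over the same 75 miRNAs, which share depth in each library, and describe repeatability only.

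Some features were common to the added tags that the rule did not use. The 5′ end was the mature start for 95.3% to 97.4% of added reads. The added base stood on the very last mature position in 62.3% to 67.3% of reads, 1 base before it in 22.7% to 25.4% and 4 or more bases before it in 1.26% to 3.20%. For added A the last position held 55.1% to 62.6%, and for added T 70.8% to 76.3%. The base before the added one was G in 55.2% to 65.7% of added reads, and in 63.7% to 74.4% of those with T. The same shares were not worked out over all reads, so these features cannot be called particular to the added tags. Summed over miRNAs from the 3′ arm of the hairpin, added T was 1.39%, 1.34%, 2.38%, 2.74% and 1.79% of reads in the order Thy1+, Thy1-, culture. For the 5′ arm it was 0.211%, 0.336%, 0.274%, 0.299% and 0.146%, lower in every library. The 5′ arm holds let-7, on whose last positions an added T cannot be seen, and its part in this contrast was not tested. As medians over miRNAs with at least 1000 reads, T was 0.138% to 0.213% on the 5′ arm and 0.446% to 0.958% on the 3′ arm. For added A the summed arms were closer, at 0.628% to 1.35% on the 3′ arm and 0.747% to 1.12% on the 5′ arm. As medians over miRNAs with at least 1000 reads, A was higher on the 5′ arm (0.596% to 1.03%, 43 miRNAs) than on the 3′ arm (0.131% to 0.342%, 25 miRNAs).

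Among the 75 miRNAs with at least 1000 reads in every library, miR-805 had the highest share of added A in each of the 5. It was 33.7% and 32.5% in Thy1+, 28.8% and 31.4% in Thy1- and 21.9% in the culture, with 4656 to 21454 reads. All 4 fresh libraries were above the culture. Without miR-805, added A was 0.742% and 0.907% of reads in Thy1+, 0.958% and 1.14% in Thy1- and 0.984% in the culture, so that the fresh fractions no longer overlapped (exact permutation p = 0.33). miR-805 has no entry in the RefSeq set used here, so its own hairpin was not among those searched. Over miRNAs with a RefSeq hairpin, added A was 0.717% and 0.876% in Thy1+, 0.956% and 1.16% in Thy1-, and 0.913% in the culture.

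The let-7 family, regulators of developmental timing and differentiation, held the largest numbers of added A reads. let-7c (chr15:85706616-85706637 in an exon of the non-coding gene Lncppara, and chr16:77599672-77599693 in an intron of Mir99ahg, GRCm38.p6) had 1167, 1443, 4252, 11495 and 6770 reads with an added A, in the order Thy1+ 1 and 2, Thy1- 1 and 2, culture. These were 1.55%, 1.66%, 1.21%, 1.29% and 1.91% of its reads, with both Thy1+ libraries above both Thy1- libraries and the culture above all 4. The edgeR test of that Thy1+ against Thy1- difference gave a log2 odds difference of 0.37 (SE 0.28, adjusted p = 0.817), so it did not pass the test. let-7a was at 0.882% to 1.08% and let-7f at 0.346% to 0.550%.

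let-7i (chr10:122985698-122985719, in an exon of the transcribed pseudogene D630033A02Rik) had a far higher A share than its relatives. It was 14.99% and 10.7% in Thy1+, 7.94% and 9.19% in Thy1-, and 16.5% in the culture. Its level in the culture was above all fresh libraries, and both Thy1+ libraries were above both Thy1-, yet neither culture comparison nor the fresh one passed the test (edgeR log2 odds differences of 1.08, SE 0.47, for culture against Thy1- and 0.64, SE 0.37, for Thy1+ against Thy1-, the latter with adjusted p = 0.755). The level differed by the end of the molecule. Of let-7i reads ending on the last mature position, 47.8%, 29.3%, 26.3%, 30.3% and 51.5% ended in A in place of T. Of those ending 1 base earlier, 8.53%, 5.58%, 5.26%, 7.55% and 6.87% did. In let-7c the order of the 2 ends was the other way, with 1.28%, 1.39%, 1.00%, 1.03% and 1.60% on the last position and 3.44%, 3.44%, 2.85%, 3.24% and 3.53% 1 base earlier. let-7e was like let-7c in this, with 0.518% to 1.02% on the last position and 3.88% to 7.07% 1 base earlier.

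miR-27b carried both A and T on the same 3′ end, in similar amounts in the fresh libraries and with more A than T in the culture. This miRNA (chr13:63300760-63300780) ends in C, and the tags shown above end in A or T in its place. Its hairpin overlaps an exon of some 2010111I01Rik transcript and lies opposite an intron of Fancc. Added A was 4.77% and 6.13% in Thy1+, 7.21% and 7.60% in Thy1-, and 11.2% in the culture, which had the highest value. Added T was 5.35% and 4.09% in Thy1+, 7.57% and 7.88% in Thy1-, and 4.91% in the culture. For both bases the 2 Thy1+ libraries lay below the 2 Thy1- libraries, with log2 odds differences of -0.48 (SE 0.35) for A and -0.77 (SE 0.35) for T and edgeR adjusted p of 0.817 and 0.678. miR-27a, a close relative, had less added A, at 1.17% to 3.27%. miR-151-3p, which also has no RefSeq entry here, had 4.60% and 3.42% in Thy1+, 4.75% and 5.23% in Thy1-, and 9.41% in the culture. miR-181b had 4.27%, 4.05%, 3.73%, 4.52% and 7.21% in the same order, again highest in the culture.

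Added T was led by the minor strands of miR-30a and miR-30e, which share a seed and end in C after AG. miR-30a* (chr1:23272315-23272336, with no other annotated gene there) had 11.9% and 14.9% in Thy1+, 9.94% and 13.1% in Thy1-, and 16.4% in the culture, so that the fresh fractions overlapped. miR-30e* (chr4:120772618-120772639, in an intron of Nfyc) had 4.80% and 9.74% in Thy1+, 10.6% and 17.2% in Thy1-, and 14.5% in the culture. The Thy1+ libraries were below the others, but the replicates of each group were far apart. The log2 odds difference for miR-30e* was -1.08 (SE 0.51, adjusted p = 0.688, edgeR). Of miR-30e* reads ending on the last mature position, 6.87%, 12.6%, 16.2%, 27.4% and 17.4% ended in T, but 1 base earlier, where the mature base is G, at most 0.171% did. For miR-30a* a further tag that starts 1 base later held 40.0% of the added T reads.

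miR-103, miR-25 and miR-541 completed the leading T members. miR-103 (chr2:131288103-131288125 in an intron of Pank2, and chr11:35782447-35782469 in an intron of Pank3) had the most added T reads. Its shares were 4.36% and 3.40% in Thy1+, 3.98% and 4.17% in Thy1-, and 5.06% in the culture, the narrowest range among these T members. Nearly all of its added T, 96.5% of reads, was in the tag shown above. miR-25 (chr5:138165332-138165353), a member of the miR-106b-25 cluster, has a hairpin that overlaps an exon of some Mcm7 transcript. Its shares were 6.25% and 5.05% in Thy1+, 7.45% and 6.32% in Thy1-, and 5.51% in the culture. Its Thy1+ values lay below those of Thy1-, by a log2 odds difference of -0.31 (SE 0.36, adjusted p = 0.911, edgeR). miR-541 (chr12:109742422-109742446, in an intron of Mirg within the imprinted Dlk1-Dio3 region) had 3.26% and 3.94% in Thy1+, 4.84% and 5.22% in Thy1-, and 1.70% in the culture, which had only 1353 of its reads.

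Added G had its highest shares on the miR-181 family, whose members are known from lymphocyte development. miR-181b (chr1:137966650-137966673 and chr2:38853845-38853868) had 4.72% and 5.68% in Thy1+, 5.81% and 7.47% in Thy1-, and 3.85% in the culture. The Thy1+ libraries were below Thy1- and the culture below all. The fitted difference between the fresh fractions was -0.37 (SE 0.36, adjusted p = 0.891, edgeR log2 odds). The RefSeq sequence of miR-181b is 1 base longer than that in the files. On the last position the files use, 18.4% to 22.7% of miR-181b reads ended in G and 5.16% to 8.88% in A. miR-181d (chr8:84178759-84178781, in an intron of Nanos3, a germ cell gene) had 1.71%, 1.45%, 1.81%, 1.81% and 2.18% added G. miR-181a had 1.62%, 1.25%, 1.36%, 1.71% and 1.52%. On the last position, G made up 2.37% to 4.20% of miR-181d reads and 1.88% to 2.75% of miR-181a reads, under the values of miR-181b in every library. The most added G reads were on miR-181a in the first Thy1+ library (15.9% of them) and on miR-181b in the other fresh libraries (14.1%, 19.3% and 35.7%). In the culture miR-34c led instead, with 549 reads or 13.6% of the added G reads, though G was on only 0.0552% of its own reads there and on 0.0579% to 0.114% in the fresh libraries.

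let-7e (chr17:17830366-17830387, in an intron of Spaca6) carried G in another place. Its share was 0.752% and 0.642% in Thy1+, 1.01% and 0.926% in Thy1-, and 0.0763% in the culture, where 27 of 35372 reads had it. Of all its added G reads 95.7% were in the 1 tag shown above, in which G stands 4 bases before the mature end. The share of molecules with that end differed between the culture and the fresh libraries. Reads ending there were 4.80%, 3.80%, 5.61% and 7.11% of the let-7e reads in the fresh libraries and 0.439% in the culture. Among the reads that did end there, G made up 15.7%, 14.7%, 18.8%, 13.5% and 10.0%. Added A made up 10.4%, 7.84%, 6.17%, 7.61% and 2.67% of the same reads, lowest in the culture. These were few reads in the Thy1+ and culture libraries. In the same order, the G tag held 18, 15, 177, 354 and 15 reads and the A tag 12, 8, 58, 200 and 4. miR-30d was the fifth G member, at 0.239% to 0.602%.

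Added C had few high members. miR-101a (chr4:101346957-101346977, in an exon of the non-coding gene E130102H24Rik) had 8.95% and 6.51% in Thy1+, 3.26% and 2.74% in Thy1-, and 4.46% in the culture. Both Thy1+ libraries were above the other 3. On the last mature position C made up 17.6% and 12.6% of its reads in Thy1+, 7.001% and 6.19% in Thy1-, and 8.66% in the culture. In miR-101b, a close relative, added C was 0.116% to 0.439% and added T 1.42% to 2.51%. miR-881 (chrX:66801954-66801975), from the X-linked cluster expressed in testis, had 2.18% and 1.78% in Thy1+, 2.47% and 1.48% in Thy1-, and 1.18% in the culture.

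miR-295 (chr7:3220815-3220837, opposite an exon of Nlrp12), of the cluster active in pluripotent cells, had the highest added C share of the miRNAs described here in 4 libraries. It was 19.9% and 4.59% in Thy1+, 3.32% and 6.27% in Thy1-, and 11.9% in the culture. The 2 Thy1+ replicates differed more than the groups did, and the name had only 632 reads in the first Thy1- library. The fitted difference was 1.13 (SE 0.84, adjusted p = 0.817, edgeR log2 odds). miR-24 had 0.799%, 0.954%, 1.36%, 1.48% and 0.622%, with Thy1- above Thy1+. miR-22 had 0.744%, 2.04%, 0.694%, 0.365% and 0.849%, and miR-805 0.515% to 1.02%.

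The share of each base on each miRNA was then tested between groups. A feature was 1 base on 1 miRNA, and of 1238 features with any added read, 375 passed the filter in the 4 fresh libraries and 408 in all 5. The filter asked for 100 reads of the miRNA in every library and 20 added reads in all. In each comparison 0 features had an edgeR adjusted p under 0.05, so the background of called features was 0%. At an unadjusted p under 0.05 there were 25 of 375 features (6.67%) for Thy1+ against Thy1-, 32 of 408 (7.84%) for the culture against Thy1+ and 41 of 408 (10.0%) for the culture against Thy1-. limma called 0 features in each comparison, and DESeq2 called 0, 1 and 1. The single culture library is assumed here to vary like the fresh ones, and its 2 comparisons share it. On simulated counts for Thy1+ against Thy1-, the test called 48 of 84 features changed 4-fold, 10 of 92 changed 2-fold and 0 unchanged ones, so most simulated differences of 2-fold were missed with these libraries.

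Most features were a little lower in Thy1+ than in Thy1-. The median log2 odds difference was -0.21 over the 375 features, and 34.9% of them were above 0. With TMM factors of the added reads the median was -0.10 and 44.3% were above 0, and with DESeq2 size factors -0.20 and 36.8%. By base the median was -0.25 for A (135 features), -0.34 for T (118), 0.00 for C (76) and -0.03 for G (46). The 3 features with the smallest p were miR-293 with A, miR-101a with C and miR-138 with T. miR-293, of the miR-290 cluster, had added A at 0.739% and 0.610% in Thy1+ and at 2.73% and 4.003% in Thy1-, from 11 to 48 reads a library. Its log2 odds difference was -2.39 (SE 0.40, adjusted p = 0.329, edgeR). For added C on miR-101a the edgeR difference was 1.42 (SE 0.35, adjusted p = 0.678). For added T on miR-138 the edgeR difference was -3.16 (SE 0.88, adjusted p = 0.678), with 1 and 0 added reads in Thy1+ and 26 and 38 in Thy1-. Without the first Thy1+ library, which leaves 0 added reads in that group, the fitted value moved to -6.72.

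In the culture, features were more often higher than in the fresh cells. The median log2 odds difference was 0.39 against Thy1+, with 67.4% of features above 0, and 0.21 against Thy1-, with 59.3% above 0. Scaling by the added reads themselves raised these medians to 0.95 and 0.74 (TMM) or 1.13 and 0.86 (DESeq2 size factors). Against Thy1+, the A features had a median of 0.52 and the T features 0.17. Against Thy1-, these were 0.28 and -0.03.

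The 3 smallest p of each culture comparison belonged to let-7e, miR-183, miR-182, miR-186 and let-7b. Added G on let-7e was -3.19 (SE 0.52, edgeR adjusted p = 0.229) against Thy1+ and -3.66 (SE 0.50, adjusted p = 0.0919) against Thy1-. It was the feature that DESeq2 called in both (adjusted p = 0.00818 and 0.000107). miR-183, from a cluster expressed in sensory cells and germ cells, had added T at 0.0553% and 0.0464% in Thy1+, 0.184% and 0.163% in Thy1-, and 0.411% in the culture. Its difference from Thy1+ was 3.02 (SE 0.54, adjusted p = 0.229, edgeR). It rested on 6 and 6 added reads in Thy1+, 4 and 6 in Thy1-, and 109 in the culture. miR-182, of the same cluster, had added G at 0.0202% to 0.0354% in the fresh libraries and 0.154% in the culture, a difference of 2.35 (SE 0.53, adjusted p = 0.417, edgeR). The added G reads were 8 and 11 in Thy1+, 2 and 1 in Thy1-, and 130 in the culture. Added G on miR-186 was 22 reads (0.394%) in the culture and at most 3 reads in a fresh library, and its difference from Thy1- was 3.66 (SE 0.65, adjusted p = 0.366, edgeR). let-7b had added T at 0.139% and 0.184% in Thy1+, 0.121% and 0.136% in Thy1-, and 0.481% in the culture, with 1.91 (SE 0.46, adjusted p = 0.426, edgeR) against Thy1-. let-7b also had its highest added A there, at 3.37% against 1.18% to 2.05% in the fresh libraries.

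By miRNA family and cluster, 0 features were called in any of the 11 lists, and the counts at unadjusted p under 0.05 are given beside the medians. Over all features those counts were 6.67%, 7.84% and 10.0% for Thy1+ against Thy1-, the culture against Thy1+ and the culture against Thy1-, the order used for each list. The let-7 and miR-98 list had 31 features with a median of 0.01 for Thy1+ against Thy1- (1 under 0.05), and 32 features with -0.16 and 0.23 for the culture against Thy1+ and Thy1- (3 and 9 under 0.05). The miR-30 list had 21 features with medians of -0.54, 1.00 and 0.57 (2, 2 and 3 under 0.05), and 19 of the 21 were above 0 for the culture against Thy1+. In the miR-183 cluster, 6 features had a median of -0.39 in the fresh comparison, with 1 under 0.05, and 8 features had a median of 1.28 against Thy1+, with 4 under 0.05, and 0.86 against Thy1-, with 1. The miR-290 to miR-295 list had 9 features, with medians of -0.55, -0.02 and -0.85 and 4, 0 and 3 under 0.05. The miR-17 clusters had 27 features with medians of -0.31, 0.10 and -0.21 (2, 2 and 1 under 0.05). The Dlk1-Dio3 miRNAs had 30 features with -0.22 in the fresh comparison (0 under 0.05) and 16 with 0.00 and -0.37 in the culture comparisons (1 and 5 under 0.05). The X-linked testis list had 27 features with -0.47 in the fresh comparison (0 under 0.05) and 38 with 0.10 and -0.30 in the others (0 and 1 under 0.05). The medians of all features are given above. Lists of so few features, from miRNAs that share loci or seeds, are described here and not tested.

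The smaller lists had few testable features. The miR-34 and miR-449 list had 3 or 4, with medians of 0.11, 0.29 and -0.15 and 0 under 0.05 in each comparison. miR-26 had 4 or 5, with 0.15, 0.75 and 0.73 and 0, 0 and 1 under 0.05. The white blood cell list had 4 features from 1 miRNA, 0 of them under 0.05, and the red blood cell list had 0. miR-34c, the most abundant miRNA of the culture with 994073 reads, carried added A on 0.307% of them there and on 0.221% to 0.641% in the fresh libraries. Its added T was at most 0.00454%. In the X-linked list, miR-741 and miR-880 had at most 0.0310% added A. The mature miR-880 ends in A, so an added A cannot be seen on its last position.

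The make-up of the libraries differed beside these shares. The 5 white blood cell markers summed to 1.59% and 2.91% of reads in Thy1+, 0.209% and 0.140% in Thy1-, and 0.0987% in the culture. The 2 gonadal somatic markers summed to 0.116% and 0.233% in Thy1+, 1.92% and 0.385% in Thy1-, and 0.0170% in the culture. The 5 germ cell markers summed to 19.6% and 10.5% in Thy1+, 6.41% and 1.74% in Thy1-, and 23.9% in the culture. Most of the culture sum was miR-34c, with 994073 of 4832029 reads. The fresh fractions overlapped for miR-34c alone. It had 98347 of 873915 and 22006 of 858741 reads in Thy1+, and 123454 of 2452141 and 41442 of 4668551 in Thy1-. The 4 pluripotent markers summed to 0.620% and 1.35% in Thy1+, 0.0719% and 0.0570% in Thy1-, and 0.0665% in the culture. The red blood cell, endothelial and mesenchymal lists were in the ranges 0.00126% to 0.152%, 0.0594% to 0.287% and 1.25% to 4.02%, and miR-199a-3p, 1 of the 4 mesenchymal markers, had 0 reads with 1 placement. The part of these differences in the shares of added bases was not tested.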

How the data were processed

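The deposited files list the raw read counts of each distinct tag, with no normalization, and its placements on mature miRNAs with up to 2 mismatches, per the file headers. Per the file names, the reference was miRBase 12.0 and tags of 15 to 35 bases were kept. Tags in the files are 15 to 25 bases long. The submitters' processing notes name DESeq. How adapters were removed, which aligner ran and on what build is not given in the sources used here. RNA was extracted with Trizol for Illumina small RNA libraries, per the labels' protocols. The files held 937002 to 5110007 miRNA reads a library, and the set of 0 or 1 mismatches and 1 placement 858741 to 4832029.

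The added and the other reads of a miRNA were compared with edgeR 4.0.16 in R 4.3.3 (quasi-likelihood, two-sided), with a term per library and the interaction of added reads with group, offset by the library's read total. Adjusted p is Benjamini-Hochberg over all features, called under 0.05. The fit of the 4 fresh libraries gave Thy1+ against Thy1-, and a fit of all 5 gave the culture comparisons. The test was tested on simulated data. Alternatives were TMM or DESeq2 1.42.0 scaling, the DESeq2 test, limma 3.58.1, other filters and denominators, libraries left out and a replicate block.

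Named miRNAs are, for each base, the 5 with the highest median share and the 3 with the most added reads per library read, then up to 2 of each list. Features called would have been named too, but there were 0. The 3 features of smallest p in each comparison, and miR-27a, miR-101b and let-7b, were chosen after their values were seen. Members and lists were chosen with earlier results of these data known. Genes at a locus are from GENCODE M21. A locus is called exonic where its hairpin overlaps an exon of any transcript of the gene, and it may lie in an intron of other transcripts.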

Additional observations from a re-analysis of the deposited data

Results flagged for a closer look

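Tags with 2 added bases lie outside the 1-mismatch set and were in no comparison. Tags of 2 mismatches whose last 2 bases both differ from the mature sequence, on a shorter tag found without mismatch, held 16425 reads. Added AA held 8133 of them and was 0.0587% and 0.0574% of the library's reads in Thy1+, 0.0443% and 0.0647% in Thy1-, and 0.0625% in the culture. The level that a count of 3 reads would give is at most 0.000349%. let-7c (1509 reads), miR-805 (1351) and miR-143 (1227) held the most AA. Added TT held 826 reads, at 0.00595% and 0.00734% in Thy1+, 0.00795% and 0.00835% in Thy1-, and 0.00261% in the culture. miR-296-3p (103 reads), miR-541 (67) and miR-24 (53) held the most TT. The TT share of the culture was the lowest of the 5 libraries.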

How the results depend on the processing

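The counts of called features stayed at 0 in each alternative for Thy1+ against Thy1- and with each library left out in all 3 comparisons (0 to 0). The other counts for the culture against Thy1+ and against Thy1- were 1 and 4 with TMM factors, 14 and 11 with DESeq2 size factors, 1 and 1 with the DESeq2 test, 2 and 2 with no filter, and 2 and 1 with at least 1000 reads of the miRNA and 100 added reads. The cause was not tested. Both scalings raised the median of all features. let-7e with added G kept its direction in each alternative, from -3.30 to -2.44 against Thy1+ and from -3.72 to -2.98 against Thy1-, with adjusted p from 0.00818 to 0.557 and from 7.67e-05 to 0.442.

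The differences between library shares (Thy1+ minus Thy1-, in percentage points) changed sign in 4 settings. Added C was -0.00809 as a median over miRNAs. Added A was 0.0327 with each miRNA at the same weight in every library, an alternative chosen after seeing the data, like leaving out miR-805 and counting only reads where the base can be seen. Other settings enlarged a difference without changing its sign. Without the 10 most abundant miRNAs it was -0.439 for A (-0.118 with all), -0.528 for T (-0.0627), -0.140 for G (-0.0348) and -0.969 for all bases (-0.108), and over reads where the base can be seen it was -0.567 for T. In these the fresh fractions did not overlap. The G difference was smaller in other settings, at -0.00433 as a median over miRNAs and -0.00482 with each miRNA at the same weight. Leaving out 1 library gave -0.128 to 0.00221 for T and -0.278 to 0.0616 for all bases, and the positive values came without the first Thy1+ library. For A the range was -0.215 to -0.0214, for C 0.0608 to 0.154 and for G -0.0605 to -0.00914.

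With the replicate number as a replicate block, 0 features were called for Thy1+ against Thy1- and the smallest adjusted p was 0.0681. Same-numbered libraries did not deviate together (r = -0.0511 over 375 features). With 2 libraries a group, that value cannot show whether they came from the same animals or the same cell isolation. Names with few reads limit the rest: 75 miRNAs had 1000 reads in every library.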
